A study of Arabidopsis thaliana with 9 samples.

Results

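Suberin is the fatty, phenolic polymer that waterproofs the walls of the root endodermis and of cork, and in the thickened Arabidopsis hypocotyl it is laid down by the periderm, whose outermost layer is the phellem (cork). The genes of 10 of its synthesis enzymes were taken by gene identifier from the gene lists of the count tables. These were GPAT5 (AT3G11430), GPAT7 (AT5G06090), CYP86A1 (AT5G58860), CYP86B1 (AT5G23190), FAR1 (AT5G22500), FAR4 (AT3G44540), FAR5 (AT3G44550), FHT (AT5G41040, listed by RefSeq as RWP1), FACT (AT5G63560) and KCS2 (AT1G04220). All 10 were present among the 38115 genes counted in the 4-week libraries and the 36957 genes counted in the 19-day libraries.

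The series holds 9 libraries of single nuclei from Arabidopsis hypocotyls, all grown with 10 h of light and 14 h of darkness. At 4 weeks, Col-0 plants carrying the nuclear reporters PXY:H4-GFP and SMXL5:H2B-RFP, driven by a pair of promoters active in the cambium, gave 1 droplet library of the whole hypocotyl (10x all hypocotyl) and 6 VASA-seq plates. Reporter fluorescence was used to sort the nuclei of 3 plates, called VASA cambium, and not those of the other 3, called VASA all hypocotyl. At 19 days, 1 droplet library each was made from Col-0 (WT) and from d14-1 (d14), which lacks a working receptor for the hormone strigolactone, both with pooled hypocotyls and without the reporters named in their labels. The 3 plates of a gate came from 1 preparation of pooled hypocotyls, so p-values between gates measure only the spread between plates. Plants were prepared separately for each gate, so gate and preparation cannot be told apart.

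Nuclei passed with more than 1200 counts in the 4-week libraries and more than 1500 in the 19-day libraries. There were 2081 passing nuclei in 10x all hypocotyl, 882 on the VASA cambium plates, 706 on the VASA all hypocotyl plates, 684 in WT and 822 in d14. Median counts per passing nucleus were between 1852 and 2029.5 in the droplet libraries and between 4086 and 6059 on the plates. The wells left without a nucleus, 6 per plate, held 0 counts of the 10 genes. Of the barcodes of passing nuclei, 1 was shared between 10x all hypocotyl and WT, and barcodes of d14 were not compared because its columns could not be named.

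Suberin has an aliphatic polyester, which is bound to ferulic acid, and an extractable wax of alkyl esters. KCS2, a condensing enzyme of fatty acid elongation, lengthens the acyl chains that supply both. For the polyester, the cytochrome P450 enzymes CYP86A1 and CYP86B1 hydroxylate acyl chains at their far end, the acyltransferases GPAT5 and GPAT7 join acyl chains to glycerol, and FHT (also called ASFT) transfers a feruloyl group onto hydroxylated chains. FAR1, FAR4 and FAR5 reduce acyl groups to primary fatty alcohols, and FACT joins a caffeoyl group to such alcohols, which gives alkyl caffeates. In the text that follows, GPAT5, GPAT7, CYP86A1, CYP86B1 and FHT are called the 5 polyester enzymes.

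The genes lie on chromosomes 1, 3 and 5 of the RefSeq assembly TAIR10.1 (the submitters' processing notes name TAIR10). FAR4 (chromosome 3, 16123426 to 16128030) and FAR5 (16137576 to 16142270) are neighbours on the forward strand. In their coding sequences FAR4 and FAR5 were 73.5% identical, with no shared run longer than 17 bases, and GPAT5 and GPAT7 were 78.2% identical, also with a longest run of 17 bases. Relatives outside the set were KCS20 for KCS2 (84.2% identity, longest run 53 bases) and FAR8 for FAR5 (87.5%, 35 bases). FAR4 shared a run of 36 bases with FAR8 and one of 28 bases with FAR1. Counts of KCS2, FAR5, FAR4 and FAR1 are uncertain to the extent that reads on such runs were shared. AT3G06845, annotated on the opposite strand, overlaps the start of FAR4.

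The 250 bases before the annotated start of 6 members are shown because GPAT5, CYP86A1 and FHT were mostly found in other nuclei than FAR1 and FACT, as described later, and because most FAR4 counts of 10x all hypocotyl lay in the same cluster as those of the latter pair. Sequences are from RefSeq TAIR10.1, read 5′ to 3′ on the gene's strand, with matches to the 6 searched motifs in capitals.
GPAT5, chr3:3595444-3595693, forward strand: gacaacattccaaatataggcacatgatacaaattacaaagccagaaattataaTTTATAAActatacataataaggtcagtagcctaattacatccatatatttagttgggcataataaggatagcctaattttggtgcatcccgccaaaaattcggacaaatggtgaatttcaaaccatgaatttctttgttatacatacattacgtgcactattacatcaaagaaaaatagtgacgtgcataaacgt
CYP86A1, chr5:23768112-23768361, reverse strand: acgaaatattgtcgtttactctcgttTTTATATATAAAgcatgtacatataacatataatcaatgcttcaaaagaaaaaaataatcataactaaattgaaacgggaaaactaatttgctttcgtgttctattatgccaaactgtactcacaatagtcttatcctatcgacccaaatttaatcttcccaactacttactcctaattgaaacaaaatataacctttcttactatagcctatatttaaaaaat
FHT, chr5:16431054-16431303, forward strand: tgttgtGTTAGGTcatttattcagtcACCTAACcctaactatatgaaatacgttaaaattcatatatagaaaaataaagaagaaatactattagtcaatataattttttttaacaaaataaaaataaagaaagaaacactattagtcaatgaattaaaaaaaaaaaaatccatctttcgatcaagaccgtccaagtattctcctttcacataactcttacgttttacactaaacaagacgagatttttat
FAR1, chr5:7470078-7470327, forward strand: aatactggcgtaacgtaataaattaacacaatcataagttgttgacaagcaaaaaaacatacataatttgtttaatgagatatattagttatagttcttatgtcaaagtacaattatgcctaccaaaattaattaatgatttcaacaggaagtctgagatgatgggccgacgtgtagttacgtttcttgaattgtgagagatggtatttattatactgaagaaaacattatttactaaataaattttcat
FAR4, chr3:16123176-16123425, forward strand: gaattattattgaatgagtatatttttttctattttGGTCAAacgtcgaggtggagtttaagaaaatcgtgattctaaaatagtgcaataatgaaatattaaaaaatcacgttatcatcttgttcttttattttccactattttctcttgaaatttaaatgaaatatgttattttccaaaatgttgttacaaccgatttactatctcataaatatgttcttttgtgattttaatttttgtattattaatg
FACT, chr5:25449061-25449310, forward strand: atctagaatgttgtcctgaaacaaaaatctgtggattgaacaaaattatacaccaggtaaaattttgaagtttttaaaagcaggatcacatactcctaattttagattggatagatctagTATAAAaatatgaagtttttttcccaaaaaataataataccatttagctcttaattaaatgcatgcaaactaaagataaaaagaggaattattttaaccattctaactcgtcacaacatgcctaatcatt

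Motifs were searched on both strands, and their share was also taken over the 27443 windows of the same length before nuclear protein-coding genes. Of the AC elements, which MYB factors bind, ACCTACC was found before 0 of the 10 members and 1.16% of all windows. The element ACCAACC was found before 1 member and 2.69% of windows, and the element ACCTAAC before 1 member and 2.46%. FHT held the last of these on both strands, 244 and 224 bases before the gene, and GPAT7 held the second, 46 bases before it. The W-box letters TTGACC were found before 3 of 10 members (GPAT7, CYP86B1 and FAR4) and 12.2% of all windows, the G-box CACGTG before 0 of 10 and 6.49%, and TATAAA before 7 of 10 and 47.3%. FAR1 held none of the 6. These matches are letters only, and no motif was present before every member.

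In the droplet libraries the counts of the 10 genes were concentrated in few nuclei. Of 10x all hypocotyl, 1518 counts of the 10 genes were found in 224 of 2081 nuclei, and 86.3% of them lay in the 48 nuclei (2.31%, 95% Clopper-Pearson interval 1.71 to 3.05%) that held at least 2 of the genes. The 28 nuclei of WT with at least 2 of the genes (4.09%, 2.74 to 5.86%) held 89.6% of 760 counts, and in d14 the 25 such nuclei (3.04%, 1.98 to 4.46%) held 84.8% of 605 counts. The median depth of these nuclei was 1858.5 counts in 10x all hypocotyl, 2159.5 in WT and 1990 in d14, against 1852, 2029.5 and 2023 over all passing nuclei, so they were slightly deeper in WT. On the VASA all hypocotyl plates such nuclei held 85.3%, 88.6% and 85.6% of the counts. On the VASA cambium plates they held 6.67%, 26.5% and 83.2% of 30, 34 and 143 counts. Nuclei chosen for holding several of the genes hold more of their counts in part through that choice. Intervals cover counting error only, and doublets were not removed.

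With every nucleus thinned to 1200 counts, which removes differences in depth, nuclei with at least 2 of the genes were 2.16% of 10x all hypocotyl (1.58 to 2.88%), 3.22% of WT (2.03 to 4.83%) and 2.43% of d14 (1.49 to 3.73%). The intervals of WT and d14 overlapped. On the plates the mean was 2.76% ± 0.488 (SD, n = 3) for VASA all hypocotyl and 0.228% ± 0.395 (SD, n = 3) for VASA cambium. Single plates were at 2.39%, 2.59% and 3.31% without the gate and at 0%, 0% and 0.685% with it, so the gates did not overlap. A share of 0 from 313 and 277 nuclei has an upper limit of 1.17% and 1.32%.

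Nuclei with at least 3 of the genes fell largely into those with polyester enzymes and those with FAR1 or FACT. Over all 9 libraries 93 nuclei held at least 3 of the genes. Of these, 35 held counts of the polyester enzymes and none of FAR1 or FACT, 43 held FAR1 or FACT and none of the polyester enzymes, and 15 held both. This division was noticed in the counts themselves, so it is given as a description, with no test.

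**Figure D1:**
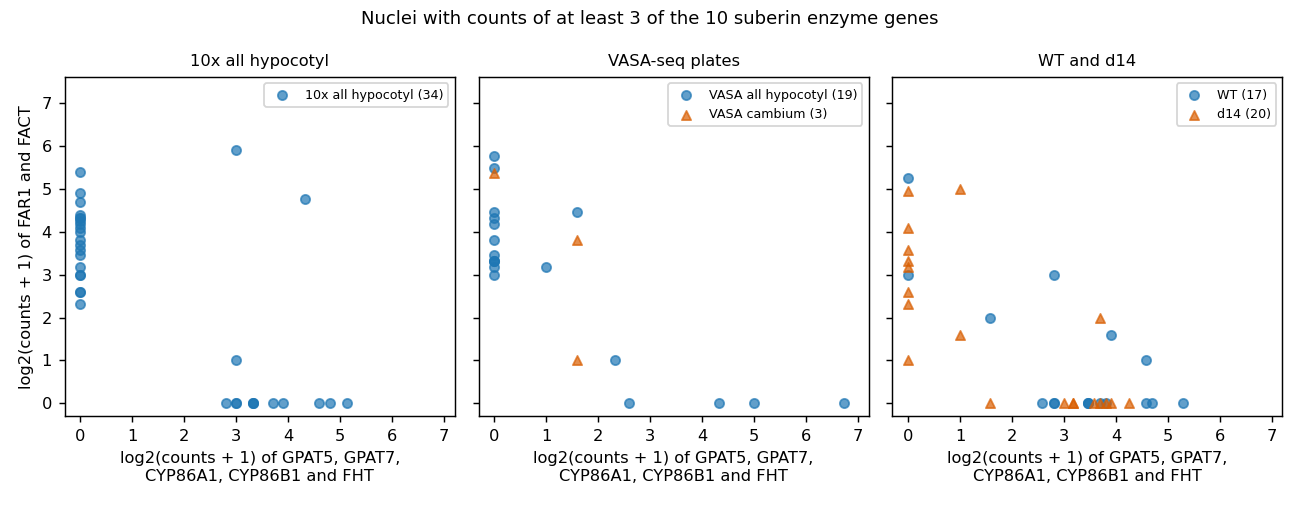
Each point is 1 nucleus with counts of at least 3 of the 10 genes. The horizontal axis gives log2(counts + 1) summed over GPAT5, GPAT7, CYP86A1, CYP86B1 and FHT, the vertical axis log2(counts + 1) summed over FAR1 and FACT, with numbers of nuclei in the keys. Most points lie along one axis or the other: 35 of the 93 nuclei hold the polyester enzymes alone and 43 hold FAR1 or FACT alone.

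The 34 such nuclei of 10x all hypocotyl were split into 11 with polyester enzymes only, 20 with FAR1 or FACT only and 3 with both. In the 11 nuclei GPAT5 was found in 10, FHT in 10, CYP86A1 in 7 and CYP86B1 in 7, with 116 counts of KCS2. In the 20 nuclei FAR1 was found in 18 and FAR4 in 16, with 220 counts of FACT. The polyester enzymes, FAR1 and FACT define the kinds, so their presence follows from the sorting. KCS2, FAR4 and FAR5 were not used in it. FAR5 crossed the divide, with counts in 10 of the 11 and in 11 of the 20 nuclei.

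Single nuclei, chosen as examples, illustrate the kinds. One nucleus of 10x all hypocotyl with 2665 counts held 8 of GPAT5, 10 of CYP86A1, 16 of FHT, 17 of KCS2, 26 of FAR5 and 2 of FAR4, and 0 of FAR1 and of FACT. Another, with 2552 counts, held 9 of FAR1, 18 of FAR4, 12 of FAR5, 20 of FACT and 3 of KCS2, and 0 of each polyester enzyme. The first carried 2 counts over the 17 phellem marker genes and the second 68.

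The VASA all hypocotyl plates and the 19-day libraries held the same 2 kinds of nuclei in other proportions. On the VASA all hypocotyl plates 4 nuclei held polyester enzymes only, 12 held FAR1 or FACT only and 3 held both. On the VASA cambium plates these numbers were 0, 1 and 2. In WT these numbers were 11, 2 and 4, and in d14 they were 9, 8 and 3. The richest polyester nucleus of all was on VASA all hypocotyl plate 2, with 41 counts of CYP86A1, 28 of CYP86B1, 24 of FHT, 35 of KCS2 and 8 of GPAT5.

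Phellem markers, the 17 genes that the study drew from its own droplet clusters and that are therefore not independent of the 10x all hypocotyl nuclei, went with the second kind. Their summed counts per nucleus in 10x all hypocotyl had a median of 2 (0 to 7) in the polyester-only nuclei and 35.5 (11 to 68) in the nuclei with FAR1 or FACT only. In WT and d14 the medians were 1.5 (0 to 18) and 29.5 (10 to 88), and on the plates 4.5 (0 to 9) and 40 (10 to 81). The ranges overlapped in WT and d14 and did not overlap in 10x all hypocotyl or on the plates. The 21 periderm markers did not separate the kinds, with medians of 10 and 16.5 in 10x all hypocotyl and overlapping ranges. Vessel markers, which mark another hypocotyl cell type, had a median of 0 in both kinds in the droplet libraries.

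Among the 45 pairs of genes, of which those named here were chosen after all had been seen, FAR1 and FHT were never found in the same droplet nucleus. FAR1 was found in 42 nuclei of 10x all hypocotyl and FHT in 27, with 0 in common. Together in WT and d14 they were found in 27 and 46 nuclei, again with 0 in common. On the plates, FAR1 was found in 57 nuclei and FHT in 18, and 2 nuclei held both. Each gene was found in few nuclei (FAR1 in 2.02% and FHT in 1.30% of 10x all hypocotyl), and genes this sparse share few or no nuclei even where they are unrelated, so a count of 0 does not show that the genes avoid each other.

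FAR1 and GPAT5 also shared 0 nuclei in both droplet sets, with GPAT5 in 13 nuclei of 10x all hypocotyl and in 19 of WT and d14, and 1 nucleus on the plates. The same limit holds for this pair, in which GPAT5 is the sparser gene in 10x all hypocotyl. FACT was found with GPAT5 in 1, 0 and 3 nuclei of 10x all hypocotyl, the plates, and WT and d14. Some polyester enzymes coincided often in WT and d14, where FHT was found in 19 of the 21 nuclei with CYP86B1 and in 16 of the 19 with GPAT5. Others did so less evenly, and FHT was found in 61.3% of the 31 nuclei with CYP86A1 in WT and d14, in 24.0% of 25 in 10x all hypocotyl and in 6.67% of 45 on the plates. FAR1 and FACT were found together in 20 nuclei of 10x all hypocotyl, which is 47.6% of the nuclei with FAR1 and 30.8% of those with FACT.

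KCS2 was on both sides but, in the droplet libraries, was found more often beside GPAT5 and CYP86B1 than beside FAR1. At 19 days it was present in 18 of the 19 nuclei with GPAT5 and in 19 of the 21 with CYP86B1, and in 5 of the 27 nuclei with FAR1. At 4 weeks, in 10x all hypocotyl, it was present in 11 of 13 with GPAT5 and in 5 of 42 with FAR1. On the plates it was present in 4 of 9 with GPAT5, in 3 of 45 with CYP86A1 and in 10 of 57 with FAR1. FAR4 was found beside both FAR1 and GPAT5. It was present in 38.1% of the nuclei with FAR1 and 30.8% of those with GPAT5 in 10x all hypocotyl, and in 26.3% and 22.2% on the plates. In WT and d14 the shares were 25.9% and 52.6%.

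For each gene in turn, nuclei were taken that held at least 2 of the other 9 genes. FAR5, in WT and d14, was found in 34 of 47 such nuclei (72.3%) and in 2.06% of the remaining 1459, and KCS2 in 66.7% of 45 and 2.19% of 1461. GPAT5 was found in 34.0% of 53 such nuclei and in 1 of the remaining 1453. FAR1 had the smallest share of its counts in such nuclei in WT and d14, 48.0% of 50 counts, against 96.9% for GPAT5, 92.6% for CYP86A1 and 85.0% for FACT. For FAR1 in 10x all hypocotyl the share was 71.1% of its counts.

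Clusters were then made without the 10 genes and named from marker lists. In 10x all hypocotyl a phellem-like cluster of 30 nuclei held 51.1% of the counts of the 10 genes and a periderm-like cluster of 188 nuclei held 30.3%. Together they held 81.4% of these counts (79.4 to 83.4%) in 218 of the 2081 nuclei. The names rest on the study's own lists, with all 17 phellem and all 21 periderm markers raised at least 2-fold in the respective cluster, and no test of a cluster against the rest was made.

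The 2 clusters divided the genes. The phellem-like cluster held 78.1% of the FAR1 counts (89 of 114), 82.1% of FACT (311 of 379), 66.1% of FAR4 (115 of 174) and 0 of the 108 counts of FHT. The periderm-like cluster held 86.4% of GPAT5 (38 of 44), 73.1% of FHT (79 of 108), 68.8% of CYP86B1 (22 of 32), 56.0% of CYP86A1 (42 of 75) and 0 counts of FAR1. FAR5 was shared, with 189 counts in the phellem-like and 92 in the periderm-like cluster, but 1 phellem-like nucleus held 99 of the 189. KCS2 had 46 and 147.

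A share of nuclei shows how sparse the polyester genes were within the periderm-like cluster. FHT was found in 17 of its 188 nuclei (9.04%), KCS2 in 16 and GPAT5 in 10, while FACT was found in 27 and FAR1 in 21 of the 30 phellem-like nuclei. In companion cell-like nuclei the 10 genes together had 4 counts in 78 nuclei. The median depth of these nuclei was 1533.5 counts, against 1809 in the periderm-like and 1871.5 in the phellem-like cluster. How much of any count came from free RNA was not estimated. Of the 9006 counts of the 10 genes over all barcodes of this library, 16.9% lay in passing nuclei, against 21.3% of all counts. A cortex-like cluster of 190 nuclei held a further 23 counts of FHT and 31 of KCS2, in 4 nuclei each.

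**Figure D2:**
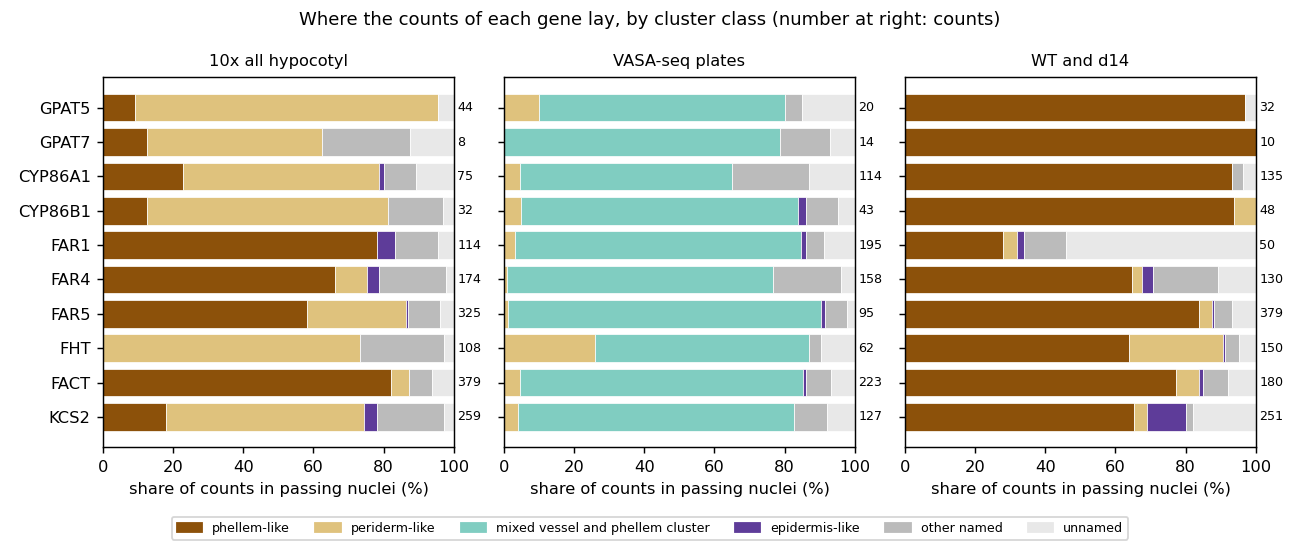
Each bar gives, for 1 gene, the percentage of its counts in passing nuclei that lay in each class of cluster, for 10x all hypocotyl, the 6 VASA-seq plates, and WT and d14, with the number of counts at the right. In 10x all hypocotyl the periderm-like class holds 86.4% of GPAT5 and 73.1% of FHT, and the phellem-like class 78.1% of FAR1 and 82.1% of FACT.

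At 19 days the clusters did not divide the genes in this way. A single phellem-like cluster of 34 nuclei held 75.2% of the counts of the 10 genes in WT and d14, with 96.9% of GPAT5, 93.3% of CYP86A1, 93.8% of CYP86B1, 83.9% of FAR5 and 77.2% of FACT. FHT had 64.0% there and 26.7% in a periderm-like cluster of 148 nuclei. The phellem-like cluster was named from 16 of 17 raised markers, 1 of them among its 10 leading genes, and it held both kinds of nuclei described above, including those with 0 to 18 phellem marker counts. Only 28.0% of the FAR1 counts (14 of 50) lay in it, and 2 unnamed clusters of 188 and 156 nuclei held 13 and 11.

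KCS2 was the member found most often in epidermal nuclei at 19 days. An epidermis-like cluster of 102 nuclei held 28 of its 251 counts, in 15 nuclei, all of them from d14: 28 counts in 60 d14 nuclei and 0 in 42 WT nuclei. An unnamed cluster whose best class was also epidermis held 29 further counts, of which 24 came from its 84 nuclei of WT and 5 from its 72 nuclei of d14. The other 9 genes had at most 4 counts each in the epidermis-like cluster. KCS2 is also known to act in the synthesis of cuticular wax, which is made by the epidermis.

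On the plates 77.1% of the counts of the 10 genes lay in 1 cluster of 35 nuclei with markers of 2 types among its leading genes, 4 of vessels and 3 of phellem. It is therefore called the mixed cluster. Its 28 nuclei from the VASA all hypocotyl plates were 9, 10 and 9 per plate and its 7 from the VASA cambium plates 3, 1 and 3. It held 81.5% of FAR1, 80.7% of FACT, 89.5% of FAR5, 79.1% of CYP86B1 and 61.3% of FHT, and 2 periderm-like clusters of 102 and 46 nuclei held 4.57% of all counts of the 10 genes. When the 10 genes were kept among the genes used for clustering, the vessel nuclei separated and a phellem-like cluster of 27 nuclei held 76.5%. With 1.2 in place of 1.8 as the resolution, the phellem and periderm nuclei merged into a periderm-like cluster of 81 nuclei with 79.5%.

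Outside the members, the genes whose level over clusters was most like that of the summed members were taken from 12228 genes with at least 50 counts in each of the 3 sets. Pearson's r was computed on log2(CPM + 10), where CPM is a gene's share of all counts of the nuclei concerned, scaled to a common total, over 18, 18 and 15 clusters, which share depth and library, and averaged. The 10 highest mean values ran from 0.90 for AT3G58550 to 0.83 for AT2G38380. By RefSeq product they were a pair of lipid-transfer proteins (AT3G58550, AT2G18370), an esterase (AT5G37690), an alpha/beta-hydrolase (AT1G23330), 3 peroxidases (AT2G38390, AT3G32980, AT2G38380), the ABC transporter ABCA8, the transcription factor NAC038 and the uncharacterised AT5G44550. Of these, 4 were phellem markers and AT3G32980 an endodermis marker.

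Of the members themselves, each against the sum of the other 9 over the 18 clusters of 10x all hypocotyl, FHT stood lowest (r = 0.29). The other 9 ran from 0.77 for GPAT5 to 0.94 for FAR5. At 19 days all 10 lay between 0.78 and 0.90. On the plates they lay between 0.85 for FHT and 0.97 for FACT, so the far lower value of FHT was limited to 10x all hypocotyl.

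The cambium gate was compared with the ungated plates to ask which genes were lower or higher among nuclei sorted for the PXY and SMXL5 reporters. All 10 genes had a lower mean behind the gate. KCS2, FAR5, FHT and FACT fell beyond the spread between plates, and CYP86A1, FAR1 and FAR4 did not pass the test. GPAT5, GPAT7 and CYP86B1 had too few counts to be tested. A sum over a plate does not tell fewer nuclei from less RNA per nucleus, nor the gate from the separate preparation of its plants.

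KCS2 was at 3.42, 1.17 and 3.84 CPM on the VASA cambium plates and at 10.3, 42.1 and 30.5 CPM on the VASA all hypocotyl plates. The 2 gates did not overlap, although 1 nucleus held 35 of the 60 KCS2 counts on VASA all hypocotyl plate 2. The log2 change was -3.23 ± 0.58 (SE), with an adjusted p of 0.0156 (edgeR quasi-likelihood test, Benjamini-Hochberg over 16134 genes). KCS2 did not pass without VASA cambium replicate 2 or without VASA all hypocotyl replicate 2, where its highest adjusted p was 0.0604.

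FAR5 was at 1.37, 0.583 and 2.20 CPM behind the gate and at 9.17, 31.6 and 23.5 CPM without it, again with no overlap (log2 change -3.83 ± 0.60, edgeR adjusted p 0.00993). FHT was at 0.683, 1.75 and 1.10 CPM against 8.60, 19.7 and 11.3 CPM, with no overlap (log2 change -3.35 ± 0.53, edgeR adjusted p 0.0102). Single nuclei held 24 of the 28 FHT counts on VASA all hypocotyl plate 2 and 22 of the 27 FAR5 counts on plate 3. FACT was at 5.47, 1.75 and 12.1 CPM against 37.2, 33.0 and 67.9 CPM (log2 change -2.78 ± 0.49, edgeR adjusted p 0.0145). Its gates did not overlap either, and without VASA cambium replicate 1 its adjusted p was 0.0517.

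The other fatty alcohol enzymes were set by 1 plate. FAR1 was at 2.05 and 1.75 CPM on VASA cambium plates 1 and 2 but at 26.3 CPM on plate 3, which overlapped the 22.3, 32.3 and 48.7 CPM of the ungated plates. FAR4 was at 2.05, 2.91 and 26.9 CPM against 16.6, 34.4 and 20.0 CPM. A single nucleus of plate 3 held 31 of the 48 FAR1 counts and 40 of the 49 FAR4 counts of that plate. The log2 changes were -1.67 ± 0.70 for FAR1 and -1.07 ± 0.69 for FAR4, with edgeR adjusted p of 0.298 and 0.546. Without VASA cambium replicate 3 they were -4.10 and -3.17, with adjusted p of 0.0121 and 0.0194.

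CYP86A1 was at 5.47, 7.57 and 4.39 CPM against 13.8, 36.5 and 7.83 CPM (log2 change -1.71 ± 0.52, edgeR adjusted p 0.124). Its plates did not overlap, and 41 of its 52 counts on VASA all hypocotyl plate 2 lay in 1 nucleus. CYP86B1 had 2 counts behind the gate and 41 without it, 28 of them in that same nucleus. GPAT5 had 3 and 17 counts and GPAT7 2 and 12.

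**Figure D3:**
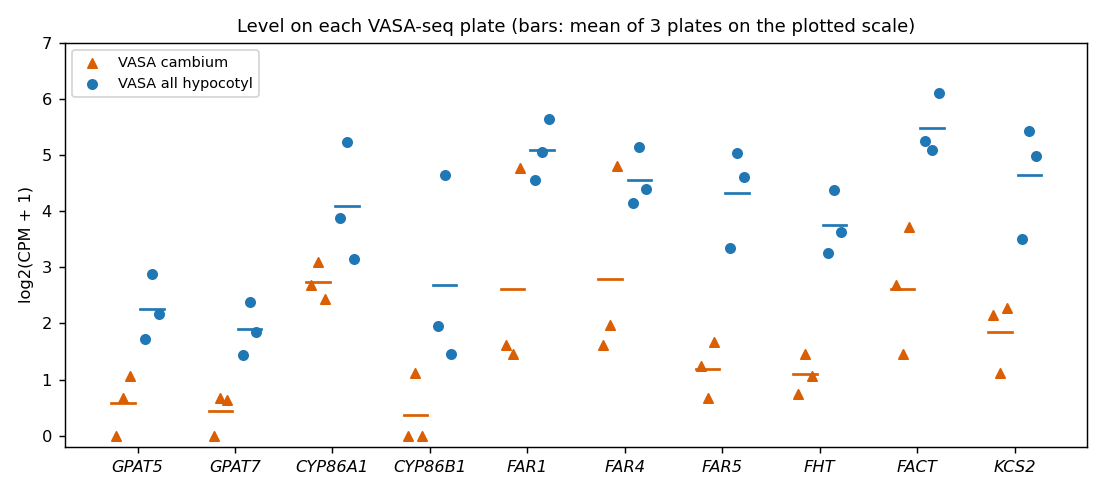
Each point is the level of 1 gene on 1 VASA-seq plate, as log2(CPM + 1), with VASA cambium as triangles and VASA all hypocotyl as circles, and horizontal bars give the mean of 3 plates on that scale. For 8 of the 10 genes all VASA cambium plates lie below all VASA all hypocotyl plates. For FAR1 and FAR4 the third VASA cambium plate, at 26.3 and 26.9 CPM, lies among the others.

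In all, 4 of the 7 tested members were lower behind the gate and 0 higher. The 7 met the filter on low counts through their levels on the ungated plates. FAR5, for example, had 2, 1 and 4 counts behind the gate against 16, 45 and 27 without it. A call higher was thus hardly open to such members, and the tally and its contrast with all genes are a description only. Over all genes tested 1.77% were called lower and 3.13% called in either direction. The median log2 change of the 7 was -2.78, against -0.00417 over all genes tested. For 8 of the 10 members the 3 VASA cambium plates lay below the 3 ungated plates, against 9.5% of the 22008 genes with at least 10 counts. When the nucleus with the most counts of the 10 genes was left out on every plate, an alternative added after the data were seen, KCS2, FACT, FAR1 and FAR4 were called. FHT and FAR5 then had too few counts to be tested. The log2 change of CYP86A1 shrank to -0.76 (edgeR adjusted p 0.435).

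Summed markers of the tissues that make suberin were also lower behind the gate. The summed phellem markers were at 29.7 to 94.9 CPM on the VASA cambium plates and at 130 to 228 CPM on the others, and 3 of their 8 tested genes were called lower. The summed periderm markers were at 902 to 1092 CPM against 1568 to 2064 CPM, with 8 of 18 called lower. Endodermis markers were at 164 to 191 CPM against 241 to 409 CPM, with 1 of 10 called lower. The share called lower over all genes tested was 1.77%. Vessel markers were at 59.3 to 263 CPM against 47.0 to 121 CPM, with 1 of 7 called higher. The part of these shifts in the changes of the 10 genes was not tested.

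Around the 10 genes, 6 genes of the pathway lists were called behind the gate, all of them lower. Of these, MYB92, LACS2 and GPAT6 met the filter on low counts through the ungated plates alone, so they could hardly be called higher. In fatty acid elongation, KCS20 (log2 change -1.68, edgeR adjusted p 0.0137) and KCS1 (-1.50, 0.0315), both condensing enzymes, were called among 5 tested. Among 4 tested relatives from cutin synthesis, LACS2 (-3.49, 0.0156), a long-chain acyl-CoA synthetase, GPAT6 (-2.53, 0.0346) and CYP86A8 (-1.35, 0.0300) were called. The regulator MYB92 (-3.24, 0.0163) was the one called among 4 tested suberin regulators, and 0 of 2 tested exporters were. Of 9 tested genes that supply phenylpropanoids, 0 were called by edgeR, although 6 had an unadjusted p under 0.05, and their log2 changes ran from 0.01 to 0.84. PAL2, a phenylalanine ammonia-lyase, was called higher by DESeq2 (adjusted p 0.0337) and, with CCOAOMT1, by edgeR without a filter on low counts (1.44e-05 and 0.0218). Without the richest nucleus of each plate 4CL1 was called (edgeR adjusted p 0.0478). In that fit GPAT6 was no longer called (log2 change -1.89, edgeR adjusted p 0.137), and LACS2 had too few counts to be tested. None of the 6 pathway genes called lower passed in every fit that left out 1 plate. KCS20 did not pass without VASA all hypocotyl replicate 1 and LACS2 without VASA cambium replicate 2 or 3, while MYB92, GPAT6, KCS1 and CYP86A8 each failed in at least 4 of those 6 fits.

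WT and d14 were compared to describe the hypocotyl of a plant that cannot perceive strigolactones. With 1 library per genotype there was no replicate check and no test. Ratios of CPM are given with exact 95% intervals that cover counting error only. The polyester enzymes FHT, CYP86A1 and GPAT7 were lower in the d14 library, as were KCS2 and FAR5. FAR1, FAR4 and FACT had ratios above 1 in its passing nuclei, which depended on the count minimum.

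FHT was counted 111 times in 30 WT nuclei (65.4 CPM) and 39 times in 16 d14 nuclei (18.7 CPM), a ratio of 0.286 (0.194 to 0.416). For CYP86A1 the counts were 89 and 46, a ratio of 0.421 (0.289 to 0.608). GPAT7 was counted 10 times, in 6 nuclei, in WT and not at all in d14, so its ratio was 0, from few counts. These were the widest differences among the members in passing nuclei.

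KCS2 had 153 and 98 counts (ratio 0.522, 0.401 to 0.677) and FAR5 214 and 165 (0.629, 0.510 to 0.774). GPAT5 (0.634, 0.292 to 1.35) and CYP86B1 (0.634, 0.341 to 1.16) had intervals that spanned 1. FAR1 had 15 and 35 counts (1.90, 1.01 to 3.75), FACT 70 and 110 (1.28, 0.941 to 1.75) and FAR4 53 and 77 (1.18, 0.824 to 1.71). The interval of FAR1 lay just above 1, and those of FACT and FAR4 spanned it. Without the nucleus richest in the 10 genes in each library, an alternative added after the data were seen, FACT was at 0.933 and FAR4 at 0.989. With a minimum of 2500 counts FAR1 was at 0.536 (0.111 to 2.26, from 6 and 4 counts), FACT at 0.765 (0.480 to 1.22) and FAR4 at 2.07 (1.09 to 4.15). With a minimum of 500 counts FAR4 was at 0.745 (0.628 to 0.883).

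Few nuclei stand behind these values. In WT 1 nucleus held 35 of the 70 FACT counts, and 1 of d14 held 31 of 110. The phellem-like cluster had 18 WT nuclei (2.63%) and 16 d14 nuclei (1.95%), and within it FHT had 69 and 27 counts, CYP86A1 83 and 43, KCS2 120 and 44, FACT 48 and 91 and FAR4 25 and 59. The ratios within these nuclei, an alternative added after the data were seen, were 0.397 (0.245 to 0.628) for FHT, 0.372 (0.257 to 0.530) for KCS2 and 1.93 (1.34 to 2.79) for FACT. For CYP86A1 the ratio there was 0.526 (0.355 to 0.769), no longer past 2-fold. Past 2-fold upward were FAR4 at 2.40 (1.48 to 3.99) and FAR1 at 6.09 (1.36 to 56.1, from 2 and 12 counts), in a cluster where 228 of 729 genes with at least 20 counts were past 2-fold either way. Of the FHT counts in the periderm-like cluster, 31 lay in 84 WT nuclei and 9 in 64 d14 nuclei.

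Over all barcodes, of whose counts the passing nuclei hold 9.19% in WT and 11.4% in d14, CYP86A1, GPAT7 and FHT were again lowest. CYP86A1 was counted 771 times in WT and 281 times in d14 ( 0.370, 0.322 to 0.425), GPAT7 66 and 25 (0.385, 0.232 to 0.618) and FHT 796 and 308 (0.393, 0.343 to 0.449). FAR1 had 539 and 505 (0.951, 0.841 to 1.08), FACT 1180 and 996 (0.857, 0.787 to 0.933) and FAR4 1295 and 985 (0.772, 0.710 to 0.840), so none of the 3 was above 1 over all barcodes. FAR5 was at 0.624 and KCS2 at 0.623.

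**Figure D4:**
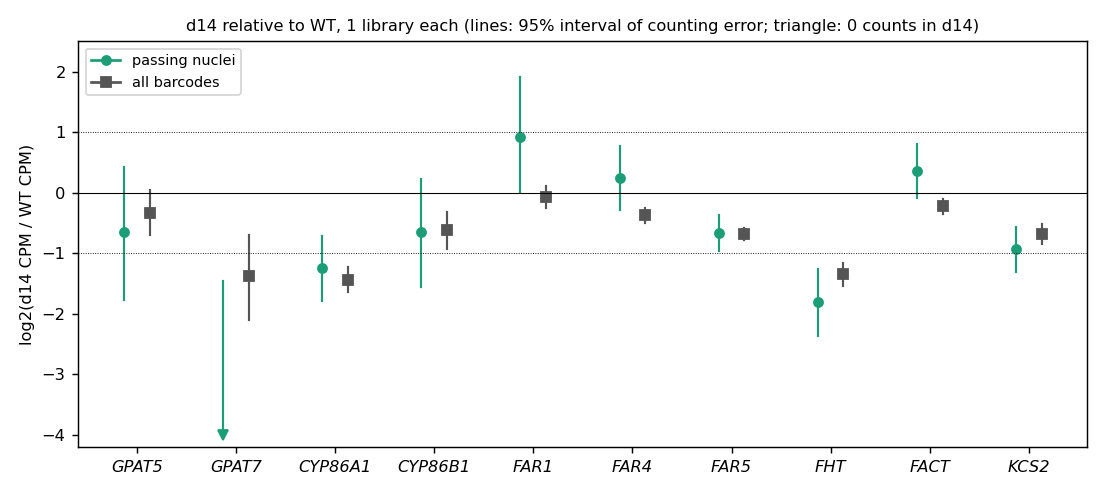
For each gene the log2 ratio of d14 to WT is given in passing nuclei (circles) and over all barcodes (squares), with vertical lines for the 95% interval of counting error and dotted lines at 2-fold. GPAT7 has 0 counts in passing d14 nuclei and is drawn as a downward triangle at the lower edge with the upper end of its interval. FHT and CYP86A1 lie below the lower dotted line in both, at 0.286 and 0.421 in passing nuclei, and FAR1 at 1.90 and 0.951.

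Of the 9 members with at least 20 counts, 2 (FHT and CYP86A1) were at least 2-fold lower in d14 and 0 at least 2-fold higher. Over 16850 such genes 4.21% were at least 2-fold lower and 8.61% past 2-fold either way. The median ratio was 0.634 over the 9 members and 1.00 over all these genes. Over all barcodes 3 of 10 members were at least 2-fold lower, against 3.83% of 21487 genes. The summed phellem markers were at 253 CPM in WT and 300 CPM in d14, the periderm markers at 4183 and 3316 CPM, and the vessel markers at 240 and 616 CPM. The part of the phellem and periderm markers in the ratios was not tested. Without vessel-like nuclei FHT was at 0.304 and CYP86A1 at 0.452, and FAR1, at 2.02, passed 2-fold.

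Of the suberin regulators, several were lower in d14. Of 9 with at least 20 counts, 5 were at least 2-fold lower with intervals below 1: MYB84 (ratio 0.204), which is also on the periderm marker list, MYB93 (0.326), MYB36 (0.331), MYB9 (0.345) and MYB107 (0.456). Not all of these held 2-fold: over all barcodes MYB36 was at 0.502 and MYB107 at 0.514, and MYB9 was at 0.561 (0.235 to 1.29) without the nucleus richest in the 10 genes in each library. Among 6 cutin relatives, GPAT6 (0.266) and CYP86A8 (0.493) were lower and DCF (3.34), a feruloyl transferase of cutin, was higher. CYP86A8 was at 0.629 with a minimum of 500 counts and at 0.869 (0.708 to 1.07) over all barcodes. None of 5 elongation genes, 1 exporter and 10 phenylpropanoid genes was past 2-fold. KCS20, the closest relative of KCS2, was at 1.19 (0.938 to 1.53).

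Members also differed in how much of their RNA lay in passing nuclei. In WT, where 9.19% of all counts did, the share was 2.78% for FAR1, 4.09% for FAR4 and 5.93% for FACT. It was 18.3% for KCS2, 13.9% for FHT and 11.5% for CYP86A1. For d14 (11.4% of all counts) FAR1 and FAR4 were again low, at 6.93% and 7.82%. Of 10x all hypocotyl (21.3%) CYP86A1 was lowest at 8.84%, followed by FAR1 at 11.5% and FAR4 at 12.6%, while FAR5 was at 24.9%. What set these shares was not tested.

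**Figure D5:**
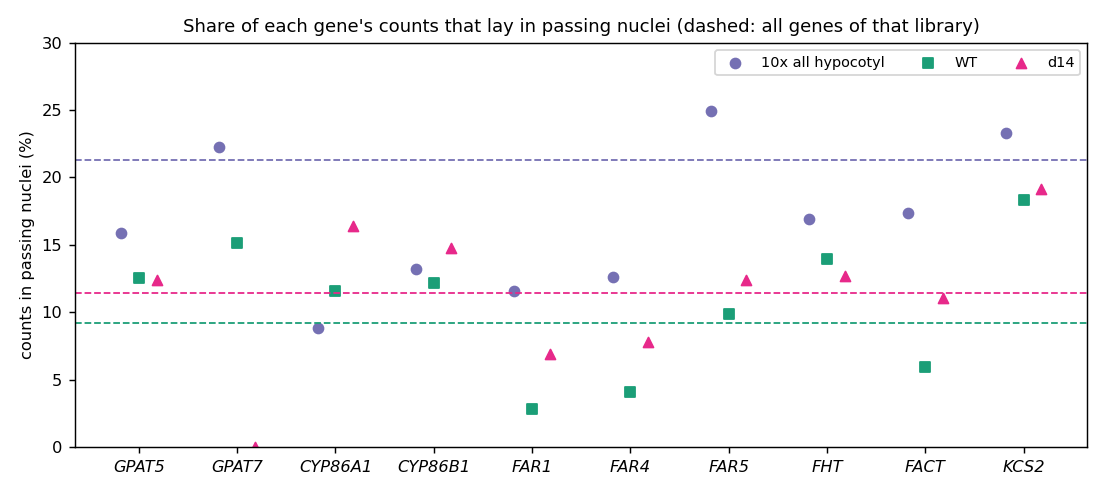
Each point gives the percentage of 1 gene's counts that lay in passing nuclei, for 10x all hypocotyl (circles), WT (squares) and d14 (triangles), and dashed lines give that percentage over all genes of each library. In WT and d14, FAR1 and FAR4 lie below the dashed lines at 9.19% and 11.4%, and KCS2 lies above them at 18.3% and 19.1%.

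Methods and ages differed between the sets, so levels are given side by side. The summed members were at 329 CPM in 10x all hypocotyl, 448 CPM in WT and 291 CPM in d14. They were at 125, 264 and 218 CPM on the VASA all hypocotyl plates and at 20.5, 19.8 and 78.5 CPM on the VASA cambium plates. FHT was at 23.4 CPM at 4 weeks and 65.4 CPM in WT at 19 days, and FAR1 at 24.7 and 8.84 CPM.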

How the data were processed

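The matrices used hold deposited raw counts, whole numbers for each gene in each droplet barcode or plate well. Per the labels and the study's methods, the authors aligned 10x all hypocotyl and VASA-seq reads with STARsolo (STAR 2.7.8a) and WT and d14 reads with Cell Ranger (6.0.1 in the submitters' processing notes), introns included, on TAIR10. How reads on shared sequence were assigned is not given in the sources used here. The deposited counts were neither scaled nor pooled. ERCC spike-ins were left out, and nuclei passed between 1200 and 10000 counts (10x all hypocotyl), 1200 and 15000 (plates) or 1500 and 15000 (WT and d14). The study's fluorescence limit on plate nuclei was not applied.

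Counts were summed per plate and gates compared with edgeR 4.0.16 (TMM, filterByExpr, quasi-likelihood test, Benjamini-Hochberg, called at adjusted p of at most 0.05). In simulated plate sums, 171 (91.9%) of the 186 genes changed 4-fold that passed the filter were recovered among 15767, with 23 false calls. False calls thus exceeded a share of 0.05 of all calls. The simulation held no single nuclei that dominate a plate, and genes too sparse for the filter were not counted. Replicate numbers shared by the gates did not pair the plates (correlations of same-numbered plates 0.13, -0.03 and 0.07). WT and d14 were compared by CPM ratio with exact conditional binomial intervals. Clusters were made with Seurat 5.3.0 without the 10 genes (15 principal components, Louvain algorithm 2, resolution 1.8 for plates and 1.2 otherwise) and named "-like" from 13 marker lists by their leading and raised markers. Class names are thus rebuilt and may differ from the study's.

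All 10 members are named, with the pathway genes called between gates or past 2-fold with an interval off 1 between genotypes, and the 10 genes most alike over clusters. Members, lists and tests were chosen with earlier results of these data known. Alternatives were DESeq2 1.42.0, other normalization, filter, nuclei, clustering and single plates left out. Motifs and identities were computed with Python and Biopython from RefSeq TAIR10.1. For all 10 members a RefSeq entry was found.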

Additional observations from a re-analysis of the deposited data

How the results depend on the processing

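Of the single-gene changes between gates, none changed sign under any alternative run, and 28 of 177 values lost and 8 gained a call. In all genes, 505 were called and 1291 without a filter on low counts, where 8 of the 10 members were called in place of 4. Leaving out 1 plate at a time gave between 231 and 355 called genes and 3 to 6 called members. With the replicate block, an option since the numbers do not pair the plates, 574 genes and 5 members were called, FAR1 among them (adjusted p 0.0412). DESeq2 called 433 genes and 5 members, CYP86B1 among them (0.0454). Between d14 and WT, 4 of 7 members were past 2-fold from barcodes with at least 2500 counts, 3 lower and 1 higher. Over all genes at that minimum, 1512 of 13770 were past 2-fold. In phellem-like nuclei only, an alternative added after seeing the data, 228 genes were past 2-fold, fewer because 729 genes had 20 counts there, and the MYB36 ratio turned from 0.331 to 1.02. Nuclei with at least 3 members after thinning were 1.39% of 10x all hypocotyl and a mean of 1.77% on the VASA all hypocotyl plates. Without thinning, nuclei with at least 2 members were 5.26% on these plates and 1.15% on the VASA cambium plates. The means without 1 plate ran from 2.49% to 2.95% and from 0% to 0.342%. The share of counts in phellem-like and periderm-like clusters moved from 81.4% to 64.6% in 10x all hypocotyl and to 84.6% in WT and d14 with a minimum of 2500 counts. On the plates it moved from 4.57% to 82.1% at the other resolution, 81.5% with the members kept for clustering and 82.6% at the 2500 minimum, since the mixed cluster then bore one of these names. Without 1 plate it ran from 3.96% to 5.63%. The few nuclei and counts per member limit all of these values. GPAT5 and GPAT7 did not pass even without a filter on low counts (log2 change -2.56 for each).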
